A study of Mus musculus with 24 samples.

Results

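The MHC class II presentation genes followed here were 10 mouse genes chosen by name, of 35817 gene symbols to which the transcript counts were summed. They were the class II chains H2-Aa, H2-Ab1 and H2-Eb1, the peptide editor chains H2-DMa, H2-DMb1 and H2-DMb2, the editor's inhibitor chains H2-Oa and H2-Ob, the invariant chain Cd74 and the class II transactivator Ciita. All 10 passed the filter on low counts in the edgeR fits of 12 or 24 libraries. That filter was more than 1 CPM (estimated counts scaled to a common library total) in 3 libraries or more. Each of the 10 had over 3 estimated counts in all 24 libraries. The lowest estimates were 9 counts for H2-Ob and 12 for Ciita.

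MHC class II molecules show peptides from endocytosed proteins to CD4+ T cells. The alpha and beta chains pair in the endoplasmic reticulum with the invariant chain, proteases trim that chain in the endosome, and the DM heterodimer then exchanges its remnant for antigenic peptide while the DO heterodimer restrains DM. Transcription of these genes depends on Ciita, which is switched on in B cells, dendritic cells and activated macrophages, whereas resting mouse T cells are known to make little or no class II. In the C57BL/6 haplotype the E alpha gene is not transcribed, so surface class II is the A molecule alone, while BALB/c cells make both A and E molecules.

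The libraries came from spleen CD4+ and CD8+ T cells of 2 genotypes, WT C57BL/6 mice and *Cat-Tg* mice, which carry an N-terminally truncated human β-catenin transgene on the C57BL/6 background, kept heterozygous. The transgene sits in the p1017 vector, whose promoter is that of the T cell kinase gene Lck. Pre-tx cells were sorted from fresh donor splenocytes, and post-tx cells were sorted from irradiated BALB/c recipients on day 7 after transfer of CD4+ and CD8+ T cells together with T cell-depleted WT bone marrow, with an antibody to the donor class I molecule H-2Kb. There were 3 libraries in each of the 8 groups, and cells of both types came from each mouse. The mice were 8 to 12 weeks old and are described in the methods as matched for age and sex. The deposited totals ran from 11135713 to 50519825 estimated counts per library, so that 3 counts were worth 0.0594 to 0.269 CPM.

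Before any result, 6 libraries went against their labels. Of the coreceptor counts for Cd8a and Cd4 together, Cd8a took 50.0 to 63.9% where the label was WT CD8+ pre-tx and 52.4 to 65.4% where it was WT CD4+ pre-tx. It took at least 99.0% in the other CD8+ libraries and at most 3.39% in the other CD4+ libraries. In the same 6 libraries the summed level of 12 T cell transcripts was 1890 to 3190 CPM, against 5050 to 15700 CPM in the other 18, and that of 15 B cell transcripts was 6250 to 9550 CPM, against 59.7 to 770 CPM. The Y-linked transcript Ddx3y was at 33.3 to 112 CPM in the 6 *Cat-Tg* pre-tx libraries and at most 0.449 CPM in the other 18. Pre-tx, the sex of the donors and the genotype therefore cannot be told apart. Within *Cat-Tg*, sex and the step from pre-tx to post-tx cannot be told apart either. Each comparison with WT pre-tx is therefore one with the libraries labelled that way, and it cannot be made without them.

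The promoters of class II genes share a short module, an X box bound by the RFX complex and a Y box bound by NF-Y, which reads CCAAT on one strand and ATTGG on the other. RefSeq promoter entries of build GRCm38.p6 matched 7 of the 10 genes. H2-Ab1, Cd74 and Ciita had no entry, and H2-DMa had 2. The stretches below run from 120 to 31 bases before the RefSeq start and are shown because they carry the letters through which members are known to be regulated together. Capitals mark TGATTGG, which holds the Y box letters.
H2-Aa: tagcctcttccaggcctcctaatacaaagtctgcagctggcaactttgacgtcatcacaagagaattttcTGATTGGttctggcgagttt
H2-Eb1: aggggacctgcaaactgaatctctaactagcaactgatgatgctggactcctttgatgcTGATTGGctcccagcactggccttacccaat
H2-DMb2: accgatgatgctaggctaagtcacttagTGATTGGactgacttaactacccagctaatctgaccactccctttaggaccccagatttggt
H2-Oa: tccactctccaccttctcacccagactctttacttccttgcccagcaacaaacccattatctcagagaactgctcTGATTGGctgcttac
H2-Ob: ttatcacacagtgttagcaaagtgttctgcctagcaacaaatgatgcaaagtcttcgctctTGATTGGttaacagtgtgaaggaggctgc
They lie at chr17:34287854-34287943 on the minus strand for H2-Aa, and on the plus strand at chr17:34305747-34305836 for H2-Eb1, chr17:34145129-34145218 for H2-DMb2, chr17:34092259-34092348 for H2-Oa and chr17:34238785-34238874 for H2-Ob. TGATTGG, searched on both strands in the 250 bases before each start, was in the entries of 6 of the 7 matched genes, H2-DMb1 included, and in 7.23% of 32851 RefSeq promoters. The motif was picked after these sequences had been read, so that count is a description. CCAAT on either strand, which TGATTGG contains, was in 33.8% of all promoters, and CCNNGNNAC, a core of the X box, in 41.1%. The 8 genes named H2 lie on chromosome 17.

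On the CPM scale the groups with the highest and second highest mean of the 8 were the same for every member, and the order below them varied. The libraries labelled WT CD4+ pre-tx had the highest mean for 10 of 10 members and those labelled WT CD8+ pre-tx the second highest for 10 of 10. The CD8+ post-tx groups of both genotypes were the lowest for 9 of 10, the exception being H2-Oa, which was lowest in WT CD4+ post-tx. In TPM, a transcript unit corrected for length and depth, as deposited and summed to genes, the libraries labelled WT CD8+ pre-tx were the highest for 2 members, H2-Ob and Ciita, and those labelled WT CD4+ pre-tx for the other 8.
TPM also allows levels of different genes to be compared. Cd74 was the most abundant member in 7 of the 8 groups, with means from 111 TPM in *Cat-Tg* CD8+ post-tx to 22000 TPM in WT CD4+ pre-tx. In WT CD8+ post-tx it was at 53.2 ± 37.3 TPM and H2-DMa at 56.7 ± 40.2 TPM (SD, n = 3), which did not differ beyond their spread. H2-Ab1 came second in 6 groups. Ciita was the least abundant in 7 groups, with means from 0.17 to 91.2 TPM, and in *Cat-Tg* CD4+ post-tx H2-Ob, at 2.02 TPM, was below Ciita, at 8.09 TPM. In bulk libraries fewer cells of a type and less RNA per cell cannot be told apart, for every level given here.

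**Figure D1:**
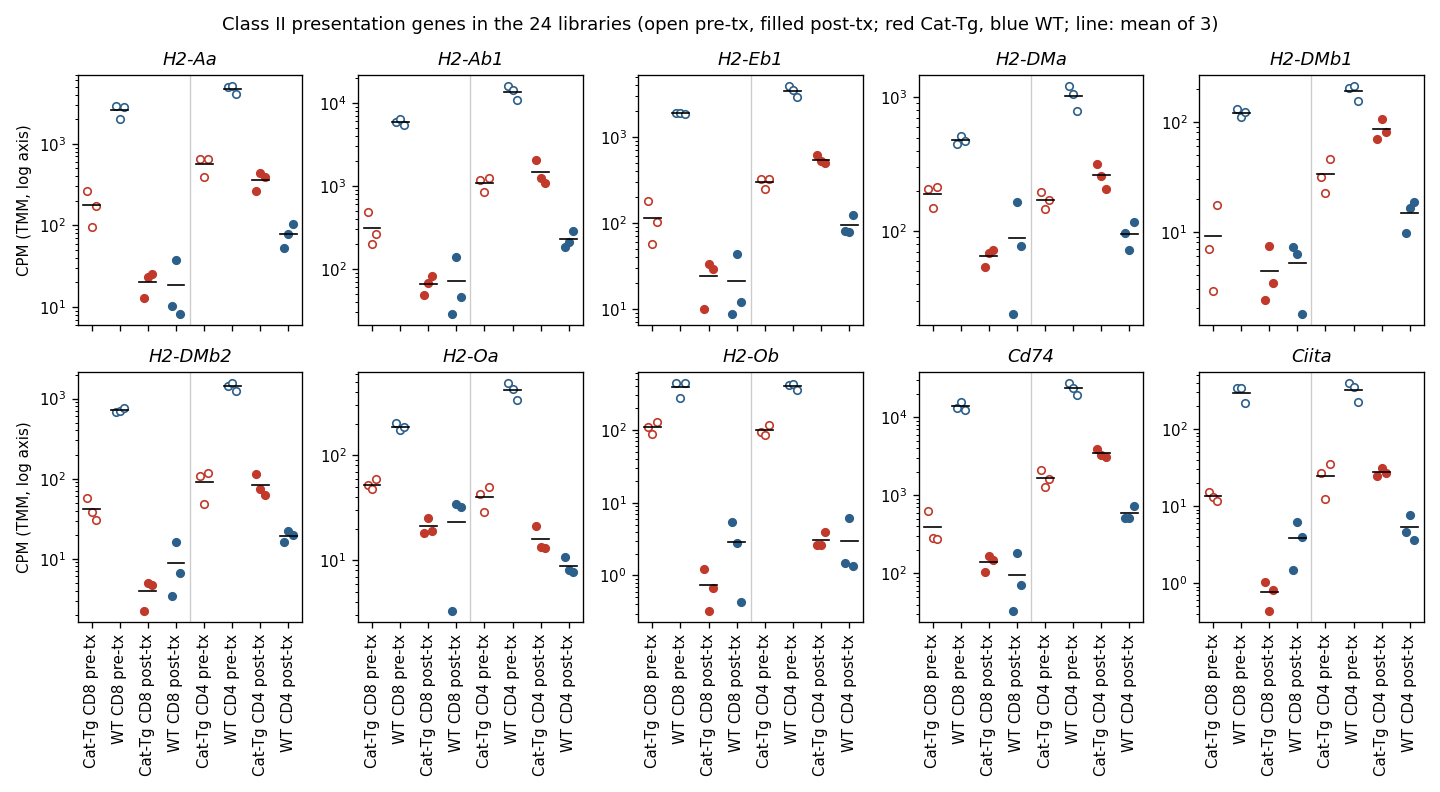
Level of each of the 10 genes in each of the 24 libraries, as TMM-normalised CPM on a log axis with its own range in each panel. Open points are pre-tx and filled points post-tx, red is *Cat-Tg* and blue WT, and the line is the mean of 3 libraries. The WT pre-tx points stand highest in every panel, and in CD4+ post-tx the *Cat-Tg* points stand above the WT points in every panel except that of H2-Ob.

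The first question was how class II transcripts differed between genotypes before transplantation. In CD8+ pre-tx libraries, 7 of the 10 members were lower in *Cat-Tg* at an edgeR adjusted p of at most 0.05, where 4.47% of the 15960 genes tested were called lower. Their median log2 fold change was −3.94, beside −0.07 over all genes tested. For all 10 members every *Cat-Tg* value lay below every WT value, as it did for 16.8% of genes tested.

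Cd74, which escorts new class II chains, stood at 624, 281 and 279 CPM in the *Cat-Tg* CD8+ pre-tx libraries and at 13000, 15700 and 12500 CPM in those labelled WT, a log2 fold change of −5.09 ± 0.59 (SE, edgeR adjusted p = 0.000242). The lowest WT value was thus far above the highest *Cat-Tg* value. H2-Ab1, the beta chain of the A molecule, was at 481, 198 and 263 CPM against 5910, 6320 and 5410 CPM (log2 fold change −4.20 ± 0.56, edgeR adjusted p = 0.000501). Its partner H2-Aa fell by 3.84 on the log2 scale and the E beta chain H2-Eb1 fell by 4.03. Ciita was at 15.1, 13.2 and 11.7 CPM against 337, 340 and 215 CPM, and fell by 4.45 ± 0.54 (edgeR adjusted p = 0.000281).

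H2-DMb1 and H2-DMb2, which encode alternative beta chains of DM, fell by 3.72 and 4.06 on the log2 scale. H2-DMa, their alpha chain, stood at 207, 150 and 215 CPM against 447, 515 and 472 CPM, a log2 fold change of −1.30 ± 0.50 that did not pass (edgeR adjusted p = 0.125). The DO chains H2-Oa, at log2 fold change −1.80, and H2-Ob, at −1.81, did not pass either (edgeR adjusted p = 0.0718 and 0.0842). Both DO chains were called under limma-voom (adjusted p = 0.026 and 0.00804), under DESeq2 (0.0219 and 0.0272), by edgeR with no filter (0.0153 and 0.0126) and by edgeR on the 6 libraries alone (0.0015 and 0.00209), where H2-DMa was called too (0.00662). These were the 3 members with the smallest differences, although their libraries did not overlap.

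In CD4+ pre-tx libraries all 10 members were lower in *Cat-Tg* than in the libraries labelled WT, where 7.18% of 17227 genes tested were called lower. The median log2 fold change was −3.20, against 0.03 over all genes tested, and for all 10 the libraries did not overlap, as for 20.3% of genes tested. Cd74 was at 2080, 1280 and 1620 CPM in *Cat-Tg* and at 27400, 23600 and 19400 CPM in WT (log2 fold change −3.59 ± 0.25, edgeR adjusted p = 2.43e-06). H2-Ab1 was at 1190, 842 and 1230 CPM against 15900, 14400 and 10700 CPM, and fell by 3.42. The largest difference was that of H2-DMb2, at −3.72 ± 0.35, and the smallest that of H2-Ob, at −1.77 ± 0.45 (edgeR adjusted p = 0.0107). H2-Ob was at 93.3, 85.3 and 117 CPM in *Cat-Tg* and 408, 432 and 349 CPM in WT.

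The transcripts of other cells moved with these differences. Of the 15 B cell transcripts, 14 were lower in *Cat-Tg* pre-tx for CD8+ and 15 for CD4+, with medians of −4.70 and −3.29. Cd79a, a signalling chain of the B cell receptor, was at 39.6 ± 19.6 against 1250 ± 148 CPM in CD8+ pre-tx, *Cat-Tg* first (SD, n = 3), and at 119 ± 26.7 against 2340 ± 265 CPM for CD4+ (SD, n = 3). Of the macrophage and monocyte transcripts, 9 of the 14 tested were lower in *Cat-Tg* for CD8+ and 3 of 15 for CD4+. Of the 10 dendritic cell transcripts, 4 were lower for CD8+ and 3 for CD4+. Over all genes tested, 4.47% were called lower for CD8+ and 7.18% for CD4+. Of the T cell transcripts, 7 of 12 were higher in *Cat-Tg* for CD8+, where 4.5% of genes tested were called higher, and 11 of 12 for CD4+, where 13.3% were. The part of these other cells in the class II differences was not tested.

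Set against the B cell list of the same library, the pre-tx class II sums of the genotypes overlapped, whereas H2-Ab1 set against Cd79a alone did not. The summed CPM of the 10 members was 970 to 1990 in *Cat-Tg* CD8+ and 24800 to 28000 in WT CD8+, but 3.19 to 3.57 and 3.32 to 4.49 times the summed B cell list. In CD4+ pre-tx libraries the sums were 3110 to 4740 and 40200 to 56200 CPM, and the ratios were 5.30 to 6.50 in *Cat-Tg* and 5.17 to 6.33 in WT. The sums themselves did not overlap in either cell type. H2-Ab1 was 7.63 to 8.54 times Cd79a in *Cat-Tg* CD8+ and 3.93 to 5.81 times in WT CD8+. For CD4+ it was 8.43 to 9.69 times in *Cat-Tg* and 5.23 to 6.16 times in WT, so this ratio was higher in *Cat-Tg* without overlap in both cell types. The summed members were 2.09 to 2.22 times the macrophage list in *Cat-Tg* CD4+ and 11.9 to 14.3 times in WT CD4+, without overlap. For CD8+ they were 1.6 to 7.1 times that list in *Cat-Tg* and 8.52 to 21.3 times in WT, again without overlap.

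**Figure D2:**
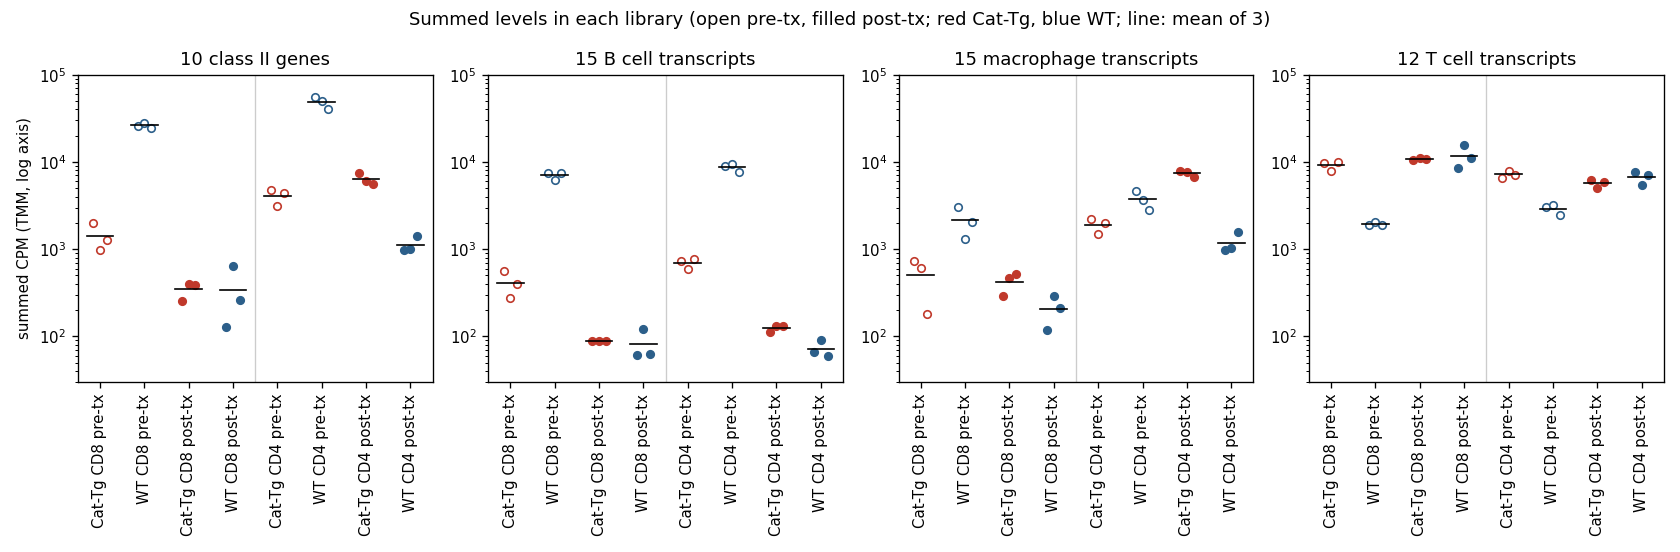
Summed TMM-normalised CPM, on a shared log axis, of the 10 class II genes and of the B cell, macrophage and T cell lists in each library. Open points are pre-tx and filled points post-tx, red is *Cat-Tg* and blue WT, and the line is the mean of 3. In the WT pre-tx libraries the class II and B cell sums are both at their highest and the T cell sum at its lowest, and in *Cat-Tg* CD4+ post-tx the class II sum, 5520 to 7380 CPM, is high with the macrophage sum, 6780 to 7810 CPM, while the B cell sum is 111 to 133 CPM.

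After transplantation the CD8+ libraries held little class II RNA in either genotype. Ciita alone was called between *Cat-Tg* and WT, and lower, where 0.57% of genes tested were called lower. The summed members were at 254, 400 and 385 CPM in *Cat-Tg* and at 127, 636 and 258 CPM in WT, so the genotypes overlapped and the WT libraries held both the lowest and the highest value. Cd74 was at 104, 168 and 147 CPM in *Cat-Tg* and at 33.5, 184 and 70.6 CPM in WT, a log2 fold change of 0.45 ± 0.50 (edgeR adjusted p = 0.649). H2-Ab1 differed by −0.18 ± 0.50 and H2-Aa by 0.06 ± 0.53, and their signs changed under other settings.

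Ciita was at 1.04, 0.439 and 0.805 CPM in *Cat-Tg* CD8+ post-tx libraries and at 1.49, 6.13 and 3.99 CPM in WT (log2 fold change −2.41 ± 0.52, edgeR adjusted p = 0.0374). It was the only member whose libraries did not overlap, as for 11.5% of genes tested with *Cat-Tg* lower. These levels rest on 12 to 32 estimated counts in *Cat-Tg* and 22 to 100 in WT, and the call was lost when any 1 of the 3 *Cat-Tg* libraries or WT replicate 3 was left out (edgeR adjusted p = 0.117, 0.198, 0.055 and 0.0623), and when the WT pre-tx libraries were left out of the fit (0.111). H2-Ob was at 1.21, 0.33 and 0.676 CPM against 5.35, 2.76 and 0.439 CPM and did not pass (log2 fold change −1.98 ± 0.67, edgeR adjusted p = 0.140), although without WT replicate 3 it did (0.0384).

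In CD4+ post-tx libraries the direction was the opposite of that before transplantation. Of the 10 members 8 were higher in *Cat-Tg*, where 3.7% of genes tested were called higher, with a median log2 fold change of 2.06, beside −0.19 over all genes tested. For 9 members the libraries did not overlap, as for 13.8% of genes tested with *Cat-Tg* higher. The 8 calls were unchanged in number under each alternative at an adjusted p of at most 0.05, including the fit without the 3 libraries labelled WT CD4+ pre-tx and each fit with 1 library left out.

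Cd74 stood at 3870, 3320 and 3130 CPM in *Cat-Tg* CD4+ post-tx libraries and at 515, 511 and 729 CPM in WT (log2 fold change 2.34 ± 0.24, edgeR adjusted p = 8.81e-05). H2-Ab1 was at 2080, 1260 and 1100 CPM against 184, 211 and 290 CPM (2.49 ± 0.29, edgeR adjusted p = 0.000193), the largest difference of a member here. H2-Eb1 was at 615, 519 and 502 CPM against 79.5, 78.2 and 124 CPM (2.32 ± 0.24), and H2-Aa was at 262, 441 and 393 CPM against 53.3, 79.5 and 104 CPM (1.98 ± 0.28). For each of these the lowest *Cat-Tg* library lay above the highest WT library. Ciita was at 24.7, 31.1 and 26.7 CPM against 4.56, 7.60 and 3.64 CPM (2.14 ± 0.39, edgeR adjusted p = 0.00356).

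The DM genes rose with the chains. H2-DMb1 was higher by 2.30 ± 0.33 on the log2 scale, H2-DMb2 by 1.88 ± 0.33 and H2-DMa by 1.24 ± 0.25, H2-DMa with 319, 256 and 208 CPM in *Cat-Tg* against 96.9, 72.4 and 117 CPM in WT (edgeR adjusted p = 0.00548). The DO genes were the 2 members not called. H2-Oa was at 21.3, 13.5 and 13.0 CPM against 10.8, 8.05 and 7.66 CPM (0.61 ± 0.29, edgeR adjusted p = 0.207). H2-Ob was at 2.60, 2.60 and 4.01 CPM against 1.48, 6.20 and 1.33 CPM, and here the genotypes overlapped (−0.21 ± 0.47, edgeR adjusted p = 0.844). As a percentage of H2-Ab1 CPM, not corrected for gene length, H2-Oa was 1.02 to 1.18% in *Cat-Tg* CD4+ post-tx. It was 2.65 to 5.87% in WT CD4+ post-tx and 2.97 to 4.06% in the 6 CD4+ pre-tx libraries.

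**Figure D3:**
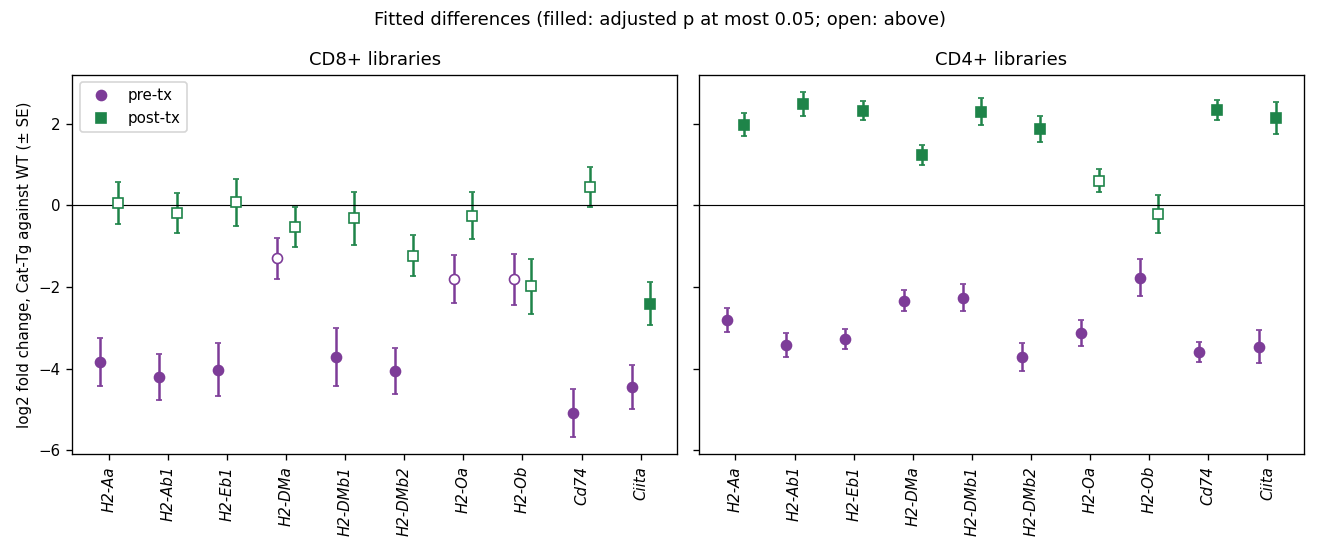
Log2 fold change of *Cat-Tg* against WT for each member, from the edgeR fits, with bars of 1 SE, for CD8+ libraries on the left and CD4+ libraries on the right. Circles are pre-tx and squares post-tx, and filled symbols have an adjusted p of at most 0.05. All pre-tx values lie below 0, the CD8+ post-tx values lie between −2.41 and 0.45, and the CD4+ post-tx values lie above 0 for 9 of 10 members.

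The macrophage transcripts moved with this CD4+ post-tx difference. Of 15 macrophage and monocyte transcripts, 12 were higher in *Cat-Tg* and 1 lower, with a median of 2.39, and their summed level was 6780 to 7810 CPM in *Cat-Tg* and 968 to 1580 CPM in WT. Csf1r, the receptor for macrophage colony-stimulating factor, was at 1320, 1750 and 1490 CPM against 119, 132 and 223 CPM. C1qb, a chain of the complement component C1q that tissue macrophages make, was at 2020, 1550 and 1540 CPM against 163, 193 and 359 CPM. The B cell list stood at 111 to 133 CPM in *Cat-Tg* and 59.7 to 91.1 CPM in WT, with 4 of its 15 transcripts higher and 2 lower, where 6.47% of genes tested were called lower. Of 10 dendritic cell transcripts 3 were higher. Over all genes tested there, 3.7% were called higher. Lyz2, a lysozyme gene of monocytes and macrophages, was at 215, 395 and 212 against 265, 117 and 133 CPM and was not called. Of 12 T cell transcripts 1 was lower and none higher by edgeR, and their summed level was 5050 to 6230 CPM in *Cat-Tg* and 5440 to 7710 CPM in WT.

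The ratio of the 10 members to the macrophage list was 0.790 to 0.944 in *Cat-Tg* CD4+ post-tx and 0.893 to 1.00 in WT CD4+ post-tx, ranges that overlap although the members' sums, 5520 to 7380 against 971 to 1410 CPM, do not. In *Cat-Tg* CD8+ post-tx it was 0.749 to 0.870 and in WT CD8+ post-tx 1.07 to 2.21. Against the B cell list the ratio was 42.4 to 66.4 in *Cat-Tg* CD4+ post-tx and 11.1 to 23.7 in WT CD4+ post-tx, each above the 6.50 that was the highest of any pre-tx library. The part of macrophage RNA in the CD4+ post-tx difference was not tested.

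The genes with the pattern most like the members' were B cell genes pre-tx and others post-tx. Likeness was the Pearson correlation of log2 CPM with the mean of the members' standardised log2 CPM, over 19066 genes, and is a description, since the libraries share groups and cell makeup. Over the 12 pre-tx libraries the first genes were Cyp4f18 (r = 0.994), Cd79a (0.993), Ly6d (0.993), Cd40 (0.991) and Cd79b (0.990), and 9 of the 15 B cell transcripts but none of the macrophage transcripts were among the first 100. Over the 12 post-tx libraries they were Ckb (0.985), Nr1h3 (0.983), Cd300a (0.980), Ltbr (0.979) and Pld4 (0.975), with Apoe sixth at 0.974, and the first 100 held 4 of the 15 macrophage transcripts and none of the B cell transcripts. Cd74 followed Cd79a with r = 0.995 over the pre-tx libraries and 0.425 over the post-tx libraries, and C1qb with 0.677 and 0.991. H2-Oa and H2-Ob left the others post-tx, with r of −0.0468 and 0.350 with the other members, whereas pre-tx they were at 0.936 and 0.938. Over the post-tx libraries H2-Oa averaged 17.3 CPM and H2-Ob 2.42 CPM, with as few as 9 estimated counts for H2-Ob. The part of counting error in these correlations was not tested.

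The second question was how the levels differed between pre-tx and post-tx cells of a genotype. Against the libraries labelled WT pre-tx, all 10 members were lower post-tx in WT CD8+ (10.4% of genes tested were called lower) and all 10 in WT CD4+ (9.61%), with medians of −6.24 and −5.59. Cd74 fell by 7.03 on the log2 scale in WT CD8+ and by 5.20 in WT CD4+. In *Cat-Tg* libraries of both cell types Ddx3y separated pre-tx from post-tx, so there sex and transplantation cannot be told apart. In *Cat-Tg* CD8+ libraries, which do not share the mixed coreceptors of the WT pre-tx libraries, 6 of 10 were lower post-tx, where 5.23% were called lower. H2-Ob fell most, from 110, 88.1 and 130 CPM to 1.21, 0.33 and 0.676 CPM (−7.17 ± 0.80, edgeR adjusted p = 7.12e-05). Ciita fell by 4.09, and Cd74, at −1.49 ± 0.51, did not pass (edgeR adjusted p = 0.0605). Cd74 and H2-DMa were called under limma-voom (adjusted p = 0.047 and 0.0377), under DESeq2 (0.0287 and 0.0211), by edgeR with no filter (0.0182 and 0.0341) and by edgeR on the 6 libraries alone (0.00437 and 0.000642), where H2-Oa was called too (0.00451). H2-Ab1 and H2-Eb1 lost their calls without *Cat-Tg* CD8+ post-tx replicate 1 (edgeR adjusted p = 0.0602 and 0.1) or replicate 2 (0.054 and 0.0599), and H2-Eb1 also without *Cat-Tg* CD8+ pre-tx replicate 1 (0.0785).

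In *Cat-Tg* CD4+ the members went different ways with transplantation. H2-DMb1 and Cd74 rose, where 16.2% of genes tested were called higher, and H2-Aa, H2-Oa and H2-Ob fell, where 28.9% were called lower, so neither count is far from the background. Without the libraries labelled WT CD4+ pre-tx in the fit, 3 rose and 2 fell, with H2-Eb1 called (0.88, edgeR adjusted p = 0.0122) and H2-Aa not (−0.64, 0.0898). H2-Ob went from 93.3, 85.3 and 117 CPM to 2.60, 2.60 and 4.01 CPM, a fall of 5.32 ± 0.53 (edgeR adjusted p = 6.34e-06), and H2-Oa from 42.8, 28.6 and 49.9 to 21.3, 13.5 and 13.0 CPM, a fall of 1.67 ± 0.30. Cd74 went from 2080, 1280 and 1620 CPM to 3870, 3320 and 3130 CPM, a rise of 0.73 ± 0.23 (edgeR adjusted p = 0.0173). Without *Cat-Tg* CD4+ pre-tx replicate 2, Cd74 and H2-DMb1 lost their calls (edgeR adjusted p = 0.0826 and 0.0725). H2-DMb1 also lost its call without *Cat-Tg* CD4+ pre-tx replicate 1 (0.052) or post-tx replicate 2 (0.0637). Ciita was at 26.8, 12.5 and 34.9 CPM before and 24.7, 31.1 and 26.7 CPM after (−0.17 ± 0.37), and the sign of this difference changed under other settings. The B cell list went from 586 to 770 CPM down to 111 to 133 CPM and the macrophage list from 1490 to 2230 CPM up to 6780 to 7810 CPM over the same step, and their part in it was not tested.

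Whether the genotype difference itself changed from pre-tx to post-tx was tested as an interaction. In CD4+ this change was above 0 and called for 9 of the 10 members, H2-Ob being the exception, where 7.28% of genes tested were called in that direction, and it was largest for Cd74 at 5.93 ± 0.35 (edgeR adjusted p = 1.61e-07) and H2-Ab1 at 5.91 ± 0.42. In CD8+ it was called for 6 members, where 5.94% were, and Cd74 again led, at 5.54 ± 0.75. H2-DMa, H2-Oa, H2-Ob and Ciita were not called in CD8+. H2-Ob was called in CD4+ under limma-voom (adjusted p = 0.034), DESeq2 (0.0156) and edgeR with DESeq2 size factors (0.0391) or length-scaled TPM (0.0339). With 1 library left out, edgeR called 9 to 10 members in CD4+ and 4 to 8 in CD8+. H2-DMb1 lost its CD8+ call without *Cat-Tg* CD8+ post-tx replicate 2 (edgeR adjusted p = 0.0898), and H2-DMb2 did too (0.0544). H2-DMb1 also lost it without WT CD8+ pre-tx replicate 1 (0.0621) or 3 (0.0526). Every interaction value takes in the WT pre-tx libraries, and also the *Cat-Tg* pre-tx libraries, in which alone Ddx3y was high.

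Between the cell types, CD8+ libraries held less class II RNA than CD4+ libraries in the fit of all 24 libraries. In *Cat-Tg* post-tx 8 of 10 members were lower in CD8+, where 4.51% of 19076 genes tested were called lower, with a median of −4.35. Ciita differed most, at −5.16 ± 0.52 (edgeR adjusted p = 7.49e-07), H2-Ob stood at the threshold (−2.06 ± 0.62, edgeR adjusted p = 0.0501) and H2-Oa differed by 0.40 ± 0.47. In WT post-tx 4 members were lower in CD8+, Cd74, H2-Aa, H2-Ab1 and H2-Eb1, where 7.16% of genes tested were, and Cd74 differed by −2.61 ± 0.43 (edgeR adjusted p = 0.000241). Cd74 alone of these 4 was called when WT CD8+ post-tx replicate 3 was left out (edgeR adjusted p = 0.006). H2-Oa went the other way in WT post-tx, at 1.40, and was not called in the main fit. It was called higher in CD8+ under DESeq2 (1.62, adjusted p = 0.00934) and by edgeR with DESeq2 size factors (0.0319). Without WT CD8+ post-tx replicate 1 edgeR called it too (2.07, adjusted p = 5.72e-05). DESeq2 also called H2-DMb1, as lower (−1.35, adjusted p = 0.0499). In *Cat-Tg* pre-tx H2-Ab1 (−1.79 ± 0.43) and Cd74 (−2.07 ± 0.42) were lower in CD8+, where 1.16% were called lower. With the mouse number as a block 4 members were called, and none was when *Cat-Tg* CD4+ pre-tx replicate 1 or *Cat-Tg* CD8+ pre-tx replicate 2 was left out. Between the libraries labelled WT CD8+ and WT CD4+ pre-tx no member was called by edgeR, nor by DESeq2 or limma-voom, although 4 had an unadjusted p under 0.05 by edgeR, and only 7 of all 19076 genes tested were called, 0.0367%. Macrophage transcripts went the same way post-tx, with 11 of 15 lower in CD8+ in each genotype.

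H2-Ea-ps, the E alpha gene on chromosome 17 that C57BL/6 cells do not transcribe, had counts that separated pre-tx from post-tx CD4+ libraries. It stood at 168, 496 and 407 CPM in *Cat-Tg* CD4+ post-tx and at 43.9, 54.7 and 95.8 CPM in WT CD4+ post-tx, against 1.91 to 7.74 CPM in *Cat-Tg* CD4+ pre-tx and 0.573 to 1.54 CPM in WT CD4+ pre-tx. The difference between genotypes post-tx was 2.24 ± 0.51 on the log2 scale (edgeR adjusted p = 0.0111), and that between post-tx and pre-tx was 6.15 ± 0.61 in *Cat-Tg* and 6.05 ± 0.63 in WT. Relative to H2-Eb1, its partner chain, its CPM was 27.3, 95.6 and 81.0% in *Cat-Tg* CD4+ post-tx and 55.2, 69.9 and 77.1% in WT CD4+ post-tx. In CD4+ pre-tx libraries it was at most 2.40%. These ratios are not corrected for gene length. In TPM it was at 239, 924 and 707 in *Cat-Tg* CD4+ post-tx, against 656, 774 and 695 for H2-Eb1. In WT CD4+ post-tx it was at 93.5, 129 and 183 TPM against 129, 138 and 186 TPM. In CD8+ post-tx libraries it was at 9.05 to 12.9 CPM in *Cat-Tg* and 0.368 to 10.1 CPM in WT, and in *Cat-Tg* CD8+ pre-tx libraries at 1.89 to 13.0 CPM. No stretch of 31 bases of its transcripts was shared with another annotated gene. The origin of these reads was not tested.

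Where members share sequence, or where the recipient carries other alleles than the reference, their counts are less certain. H2-DMb1 and H2-DMb2 shared 517 stretches of 31 bases, and 31.4% and 36.6% of the stretches of each were in another gene. H2-DMb1 took 10.9 to 12.4% of the counts of both in WT CD4+ pre-tx and 22.9 to 31.3% in *Cat-Tg* CD4+ pre-tx, but 37.4 to 48.6% and 38.0 to 59.2% post-tx. Of H2-Oa, 18.3% of stretches were shared, chiefly with BC051537, and of H2-DMa 9.23%, all with its neighbour Brd2. For H2-Aa, H2-Ab1, H2-Eb1, H2-Ob, Cd74 and Ciita the share was at most 2.77%. This search used reference transcripts only, so it does not cover recipient alleles.

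The transcripts to which counts were assigned also shifted with transplantation in CD4+ and *Cat-Tg* CD8+ libraries. Cd74 lies on chromosome 18. Cd74-202, whose product of 279 residues is longer than the 215 of the main form Cd74-201, took 18.0 to 18.6% of Cd74 counts in WT CD4+ pre-tx and 16.8 to 23.6% in *Cat-Tg* CD4+ pre-tx. Post-tx its share was 29.5, 29.6 and 29.3% in WT CD4+ and 40.2, 32.3 and 34.6% in *Cat-Tg* CD4+. In *Cat-Tg* CD8+ it was 17.2 to 21.7% pre-tx and 23.1 to 31.5% post-tx. In WT CD8+ it was 16.6 to 17.5% pre-tx and 15.9 to 17.3% post-tx, ranges that overlap. The transcript H2-Aa-204 took at most 0.0774% of H2-Aa counts in CD4+ pre-tx libraries and 20.7 to 42.4% in CD4+ post-tx libraries of both genotypes. In CD8+ it took at most 1.7% pre-tx, and post-tx 5.21 to 27.6% in *Cat-Tg* and 0.0 to 19.1% in WT. H2-Ab1-208 took at most 0.224% of H2-Ab1 counts in CD4+ pre-tx libraries. Post-tx it took 16.3 to 17.9% in WT CD4+ and 0.0, 13.5 and 13.8% in *Cat-Tg* CD4+. The library at 0.0%, *Cat-Tg* CD4+ post-tx replicate 1, also had the highest H2-Ab1 CPM of its group. In CD8+ libraries H2-Ab1-208 took at most 0.451% pre-tx and at most 4.24% post-tx. These are model-based assignments by the authors' quantification, given without a test.

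Ciita has alternative first exons. As background, the first promoter serves dendritic cells and macrophages, the third B cells, and the last responds to interferon gamma. The 8 annotated transcripts start in 3 clusters, from 10480059 to 10480164, from 10488178 to 10488279 and from 10489746 to 10489783 on chromosome 16, plus strand, of GRCm38. The last cluster took 64.1, 58.3 and 54.1% of Ciita counts in *Cat-Tg* CD4+ post-tx and 0.463, 12.4 and 1.14% in *Cat-Tg* CD4+ pre-tx, without overlap. In WT CD4+ it was 34.4, 30.1 and 20.8% pre-tx and 10.2, 1.13 and 46.3% post-tx. It ran from 1.40 to 69.1% in *Cat-Tg* CD8+ post-tx and from 0.0 to 64.7% in WT CD8+ post-tx, where Ciita had 12 to 32 and 22 to 100 counts in all. Which promoter a cluster stands for was not settled by these data.

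**Figure D4:**
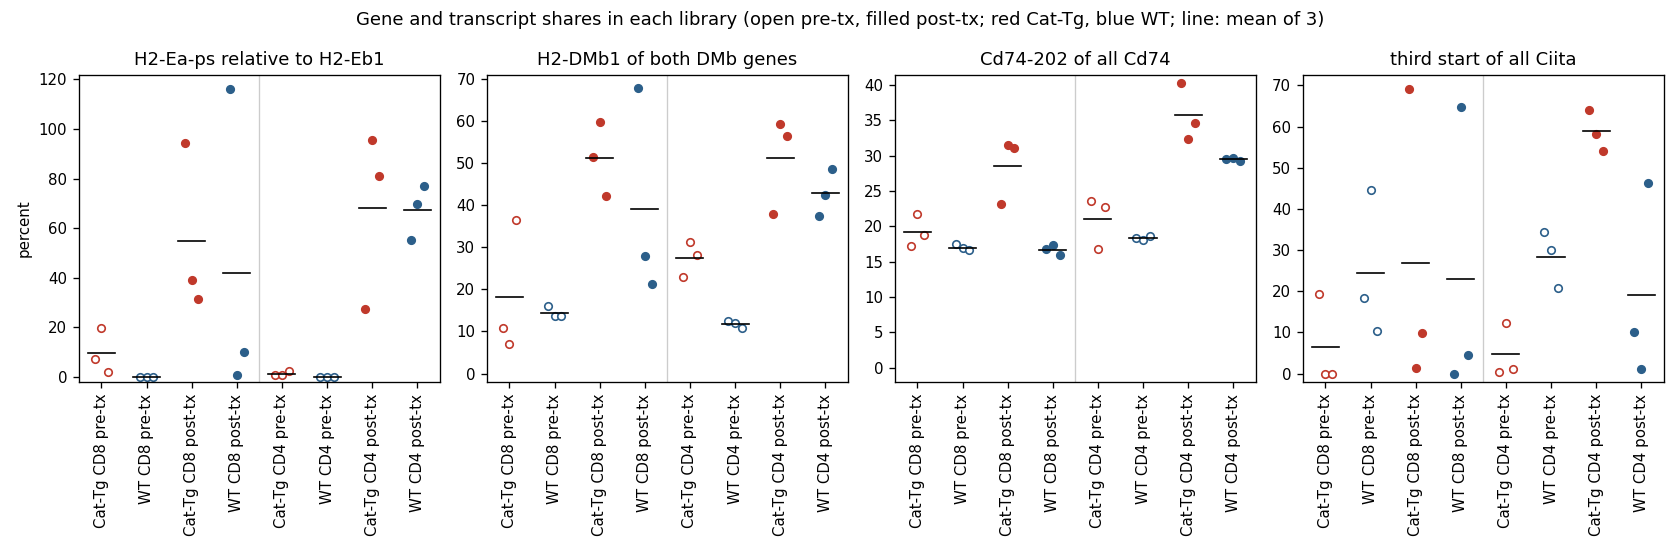
Percentages in each library: H2-Ea-ps CPM as a percentage of H2-Eb1 CPM, H2-DMb1 of the counts of both DM beta genes, Cd74-202 of all Cd74 counts, and the last of the 3 start clusters of all Ciita counts. Open points are pre-tx and filled points post-tx, red is *Cat-Tg* and blue WT, and the line is the mean of 3. All 4 percentages are higher in *Cat-Tg* CD4+ post-tx than in *Cat-Tg* CD4+ pre-tx libraries without overlap, and in the panel of H2-Ea-ps the CD8+ post-tx points run from 0.85 to 116%.

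Of 25 other genes of the pathway, chosen by their role, 7 were higher and 1 lower in *Cat-Tg* CD4+ post-tx, where 3.7% of all genes tested were called higher and 6.47% lower, with a median log2 fold change of 0.05. Those that rose included processing enzymes. Lgmn, the asparagine endopeptidase that starts invariant chain cleavage, was at 448, 591 and 509 CPM against 77.3, 94.6 and 113 CPM (2.22 ± 0.25, edgeR adjusted p = 0.000193). Ctss, the cathepsin that finishes it, was at 358, 893 and 821 against 104, 163 and 223 CPM (1.85 ± 0.34). Ifi30, the lysosomal thiol reductase, was higher by 1.32 ± 0.25. The other higher genes were H2-Ea-ps, the ubiquitin ligase March8 (2.16), the interferon gamma receptor chain Ifngr2 (1.87) and the costimulatory ligand Cd86 (1.73), and the kinase Jak2 was lower (−1.28).

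The factors that act with Ciita on the promoters were not called in that comparison. None of the 8 transcription factor genes listed, which include Nlrc5 of the class I genes, was called by edgeR. Rfx5 differed by −0.40 ± 0.39 and Creb1 by 0.05 ± 0.33. Of the 8, 1, Rfxap at −0.85, had an unadjusted p under 0.05 by edgeR (0.0331). In CD8+ post-tx, where 1.1% of genes tested were called higher, the only pathway gene called was Nlrc5, the transactivator of class I genes, at 236, 201 and 132 CPM in *Cat-Tg* against 60.4, 52.0 and 46.1 CPM in WT (1.76 ± 0.38, edgeR adjusted p = 0.0360).

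Before transplantation, 5 of the 25 were lower in *Cat-Tg* CD8+, with Lgmn at −3.71, Ifi30 at −2.41, the ubiquitin ligase March1 at −4.30, H2-Eb2 at −5.16 and the costimulatory receptor Cd40 at −3.91. Of all genes tested there, 4.47% were called lower. In CD4+ pre-tx 4 of the 25 were lower and 6 higher, where 7.18% of all genes tested were called lower and 13.3% higher. Ctss, at −0.78 ± 0.47 in CD8+ and 0.48 ± 0.33 in CD4+, was called in neither, and it was at 196 to 417 CPM in the *Cat-Tg* and 217 to 473 CPM in the WT pre-tx libraries.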

How the data were processed

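RNA was measured in 24 mouse libraries, 8 groups of 3, made by the authors from sorted T cells with the SMARTseq HT kit. The authors deposited Kallisto (version 0.46.2) tables with estimated counts and TPM per transcript, 1 table per library. The submitters' processing notes name mm9, and the release of the transcript index was not given in the sources used here. Estimated counts were summed to gene symbols through GENCODE M21 by transcript identifier without version. Of 117497 transcripts 1123 did not match (0.25 to 0.43% of counts). Positions and promoters are those of GRCm38.

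Counts were rounded, TMM-normalised and tested by edgeR (version 4.0.16, R 4.3.3) quasi-likelihood fits with Benjamini-Hochberg adjustment over all genes tested, per cell type (12 libraries), or over 24 libraries between cell types. The filter kept genes above 1 CPM in 3 libraries or more, and an adjusted p of at most 0.05 was a call. Groups came from the labels. As alternatives, DESeq2 (1.42.0), limma-voom (limma 3.58.1), other size factors, filters, counts, calls, samples and blocks were tried. The fit without WT pre-tx libraries was chosen after seeing the data. The scripts were tested on simulated data.

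Genes named were the members, 25 pathway genes, at most 4 of each marker list by highest mean CPM, and the 10 genes most like the members by correlation. Values of 2 of these genes are not reported here. The members and lists were chosen with earlier results of these data known. The authors sorted both cell types from each of 3 mice per genotype and time, which post-tx were BALB/c recipients. The p-values therefore measure the spread between WT or *Cat-Tg* mice pre-tx and between recipients post-tx. How many donors supplied the transferred cells is not stated. No 2 libraries of a group agreed within sampling noise (chi-square per degree of freedom of at least 46.8). In no comparison did the deviations of all 3 same-numbered pairs correlate with r above 0.1, and the sources do not say that numbers match mice. Depth ran from 11135713 to 50519825 counts, and floors of 3 counts cover counting error only.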

Additional observations from a re-analysis of the deposited data

Results flagged for a closer look

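The *Cat-Tg* effect differed between post-tx and pre-tx by the test of the difference itself in 6 members for CD8+ and 9 for CD4+. On the log2 scale, post-tx minus pre-tx, the CD8+ values were 3.89 for H2-Aa, 4.02 for H2-Ab1, 4.12 for H2-Eb1, 3.41 for H2-DMb1, 2.83 for H2-DMb2 and 5.54 for Cd74. The CD4+ values were 4.80 for H2-Aa, 5.91 for H2-Ab1, 5.61 for H2-Eb1, 3.58 for H2-DMa, 4.57 for H2-DMb1, 5.60 for H2-DMb2, 3.75 for H2-Oa, 5.93 for Cd74 and 5.61 for Ciita. Each rests on the WT pre-tx libraries, in which both coreceptors were present and the B cell list stood at 6250 to 9550 CPM, and the part of these in the differences was not tested. Each also rests on the *Cat-Tg* pre-tx libraries, in which alone Ddx3y was high, and the part of sex was not tested.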

How the results depend on the processing

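The 8 higher calls in CD4+ post-tx numbered 8 under every alternative except a log2 fold change of at least 2, which left 5. In CD8+ post-tx the 1 call became 0 under limma-voom, length-scaled TPM, the replicate block, the 6 libraries alone and the fit without WT pre-tx libraries, and 2 under DESeq2 and with no filter. In *Cat-Tg* CD4+ post-tx against pre-tx the 5 calls stayed 5 with no filter and without WT pre-tx libraries but turned from 2 higher and 3 lower to 3 higher and 2 lower, and were 3 and 1 at a log2 fold change of at least 1 and 2. In CD8+ against CD4+ *Cat-Tg* pre-tx the 2 calls became 5 under limma-voom, 4 under DESeq2, 4 with the replicate block (mouse), 1 with DESeq2 size factors and 1 at a log2 fold change of at least 2, and in WT post-tx the 4 became 1 with the 6 libraries alone. With 1 library left out the counts were 0 to 1 in CD8+ post-tx, 4 to 5 in *Cat-Tg* CD4+ post-tx against pre-tx, 0 to 2 in CD8+ against CD4+ *Cat-Tg* pre-tx and 1 to 5 in WT post-tx. Apart from the changes given above, a block changed no count by over 1.5 times. Every library correlated best with its own number between genotypes in CD8+ pre-tx (r = 0.124, 0.176 and 0.0505) and between post-tx and pre-tx in *Cat-Tg* CD4+ (0.0974, 0.0528 and 0.0409), a hint from the data only. The cause of these changes was not tested.

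Signs turned only for values that were not called. In *Cat-Tg* against WT CD8+ post-tx, H2-Ab1 was at 0.12 under limma-voom and 0.03 with length-scaled TPM, H2-Oa at 0.24 under limma-voom, H2-Aa at −0.09 under DESeq2 and −0.09 with its size factors, and H2-Eb1 at −0.07 and −0.06. With 1 library left out they ran from −0.38 to 0.86 for H2-Ab1, −0.62 to 0.25 for H2-Oa, −0.12 to 1.16 for H2-Aa, −0.18 to 1.23 for H2-Eb1, −0.87 to 0.19 for H2-DMb1 and −0.82 to 0.37 for H2-DMa. H2-Ob was at 0.38 under limma-voom and 0.01 with no filter for the CD8+ difference of the *Cat-Tg* effect (−0.72 to 0.92 with 1 library left out), and at 0.29 under limma-voom in CD4+ post-tx (−0.59 to 0.93). In *Cat-Tg* CD4+ post-tx against pre-tx Ciita was at 0.05 under DESeq2 and 0.05 with its size factors, 0.15 with no filter, 0.12 with length-scaled TPM and 0.15 without WT pre-tx libraries (−0.51 to 0.17), and H2-Ab1 ran from −0.22 to 0.33. In CD8+ against CD4+ WT pre-tx, H2-Ob was at 0.21 with no filter, 0.25 with length-scaled TPM and 0.02 with 6 libraries (−0.14 to 0.14), and Ciita at 0.09 and 0.09 under the first 2 of these (−0.24 to 0.14). In WT post-tx H2-DMa was at 0.13 under DESeq2 and 0.13 with its size factors (−0.77 to 0.54), H2-Ob at 0.09, 0.09 and, with length-scaled TPM, 0.63 (−0.78 to 0.99), and Ciita ran from −0.79 to 0.09. H2-Ob in *Cat-Tg* pre-tx ran from −0.03 to 0.30.

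Of the members' log2 fold changes under alternatives, 1940 kept direction and side of the threshold, 43 lost and 55 gained a call and 61 changed sign. DESeq2 size factors moved the median over all genes from −0.55 to −0.21 in the CD4+ difference of the effect and from −0.38 to −0.15 in *Cat-Tg* CD4+ post-tx against pre-tx. Depth limits Ciita and H2-Ob in CD8+ post-tx most, where estimates fell to 12 and 9 counts.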
